A study of Mus musculus with 2 samples.

Results

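Chemokines are small secreted proteins that guide migrating leukocytes, and they act through G-protein-coupled receptors on the responding cell. They are named by the spacing of their first cysteines as CC, CXC, CX3C and XC ligands, and the receptors take the matching names. A few atypical receptors bind or scavenge chemokines without the usual G-protein signalling. In bone marrow, CXCL12 and its receptor CXCR4 retain stem and progenitor cells, while CXCR2 and its ligands draw neutrophils out into blood. The genes whose mouse symbols follow these names were examined here for binding of HLF (hepatic leukemia factor), a PAR bZIP transcription factor active in haematopoietic stem cells. By symbol, 62 protein-coding genes of a RefSeq gene table (GRCm38.p6) qualified and are reported, out of 21523 such genes with a usable position. Of these, 61 had a chromosomal position and are described below, 38 of them ligand genes and 23 receptor genes. The remaining gene, Ccl21c, carries scaffold coordinates in the table and was not analysed here. The family also holds Pf4 and Ppbp, CXC ligands of platelets whose symbols the pattern misses. They lay 82.5 and 78.6 kb from their nearest peak.

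The series set out to map HLF binding by chromatin immunoprecipitation and sequencing (ChIP-seq). The cells were Lin-Sca-1+c-Kit+ cells, a surface phenotype enriched for haematopoietic stem and progenitor cells, of C57BL/6 mice aged 8 to 10 weeks, with blood as the labelled tissue. They were transduced with a MigR1 retrovirus carrying 3xFLAG-HLF/HLF, then cultured for 5 days in OP9 medium with IL-3 (5 ng/ml), Flt3L and IL-7 (10 ng/ml each) and SCF (50 ng/ml), and an anti-FLAG antibody was used. Cells given MigR1 empty vector formed the other library, which was not analysed here. The binding measured is therefore that of a virally supplied, tagged protein in cultured cells, from 1 library with no replicate and with no comparison between libraries. The data are 3153 peaks, each 400 bp wide, without heights or read counts, so the depth is unknown and a peak is only present or absent. A peak list holds no expression values, so neither the cell type nor the activity of any gene could be checked. A gene is called near a peak below if the centre of at least 1 peak fell between 20 kb before its start and 20 kb past its end. No test was run. Intervals are exact Clopper-Pearson 95% intervals for shares, or exact Poisson ones for densities, and cover counting error only. They treat neighbouring genes as independent, although many of these genes share peaks.

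The peaks closest to annotated gene starts in this family were those at Ccl3 and Ccl9. Both are CC ligand genes of the same group on chromosome 11, with Ccl6 between them. Ccl3 encodes MIP-1 alpha, a chemoattractant of monocytes and other leukocytes that is also known to restrain stem cell proliferation. Ccl9 encodes MIP-1 gamma, a myeloid chemokine of rodents that binds CCR1. The peak at Ccl3, chr11:83649287-83649686, was centred 108 bp upstream of the gene's annotated 5′ end. The nearer of the Ccl9 peaks, chr11:83578391-83578790, was centred 46 bp downstream of that gene's 5′ end. Of 48 members with a 5′ end in the RefSeq promoter table, these were the 2 with a peak centre within 1 kb of it. Over all protein-coding genes with such an entry, the share was 1.74% (300 of 17274).

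The sequences below show stretches at these starts that lie inside the peaks, since these are the members' promoters that hold a peak centre. The remaining part of each peak is not shown. They are given 5′ to 3′ on the minus strand, which is the coding strand of both genes, from RefSeq on GRCm38.p6. Capitals mark the 8-base words that differ at 1 position from TTATGTAA. The Ccl9 upstream stretch holds no such word. The Ccl3 stretch is chr11:83649379-83649628, from 250 bases to 1 base before the 5′ end. The Ccl9 stretch upstream of the 5′ end is chr11:83578637-83578790, and the short Ccl9 site, from 20 to 49 bases after the first transcribed base, is chr11:83578587-83578616.
Ccl3 upstream: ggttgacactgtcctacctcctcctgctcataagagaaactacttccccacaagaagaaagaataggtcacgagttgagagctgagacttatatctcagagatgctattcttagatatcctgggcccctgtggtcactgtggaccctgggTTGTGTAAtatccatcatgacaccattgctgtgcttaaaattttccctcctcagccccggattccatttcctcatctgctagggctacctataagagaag
Ccl9 upstream: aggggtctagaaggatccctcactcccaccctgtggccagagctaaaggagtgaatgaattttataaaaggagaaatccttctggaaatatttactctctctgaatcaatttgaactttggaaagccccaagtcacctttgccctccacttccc
Ccl9 site: ttagaactagcatgttgggtgTTATGTAGt

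PAR bZIP proteins bind as dimers to palindrome-like sites such as TTACGTAA and TTATGTAA, and C/EBP proteins to TTGCGCAA. All 3 words were searched on both strands in the promoter windows of the table, from 250 bases before to 50 after each 5′ end. The promoters of the members near peaks, 12 windows of 10 genes, held 0 of these words. Over all 32851 promoter windows, TTACGTAA was found in 0.119%, TTATGTAA in 0.938% and TTGCGCAA in 0.183%. The single member promoter with an exact word belonged to Ccr6, the receptor of CCL20, which held TTATGTAA and had its nearest peak 1489 kb away.

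Up to 1 mismatch to TTACGTAA or TTATGTAA was then allowed, a choice made after the exact search had been seen. The words in Ccl3 and Ccl9 came from this search. Against TTATGTAA, counted from its 5′ end, the Ccl3 word carries A3G and the Ccl9 word A8G. The middle of the Ccl3 word lay 11.5 bp from the centre of its peak, and that of the Ccl9 word 1.5 bp from its own. Such words are common: 17.4% of all 32851 promoter windows held at least 1. Of 142 promoter windows, in the whole genome, that hold a peak centre, 87 (61.3%) had one, and 13 (9.15%) held TTACGTAA or TTATGTAA exactly, against 1.06% of all windows. The Ccl3 and Ccl9 windows are among the 87. The windows that hold a peak centre were also richer in G and C, with a median of 56.2% against 52.7%. Counted per gene, a word with up to 1 mismatch was found in 5315 of all 27025 genes with a promoter entry. Among members it was found in 12 of 48. Of the 10 genes near peaks with a promoter entry, 5 had such a word, namely Ccl3, Ccl9, Ccl6, Ccr3 and Ccrl2. In the last 3 genes the peaks lay at least 13.8 kb from the 5′ end, so those words were not in a peak.

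Across the whole family, 11 of 61 genes (18.0%, 9.36 to 30.0%) lay near a peak, through 10 distinct peaks. The background was 15.3%, or 3294 of 21523 protein-coding genes, which falls inside the interval of the family. Among protein-coding genes with a span between the quartiles of the members (2.45 to 10.9 kb), 12.1% lay near a peak. The 11 genes were the ligand genes Ccl3, Ccl4, Ccl6, Ccl9, Ccl17, Cxcl1, Cxcl2 and Cxcl10, and the receptor genes Cxcr2, Ccr3 and Ccrl2. The share was 8 of 38 for ligands (21.1%, 9.55 to 37.3%) and 3 of 23 for receptors (13.0%, 2.78 to 33.6%), and these intervals overlap over most of their length. Both genes of the XC and CX3C receptors and both genes of their ligands had no peak in the window, which with 2 genes allows a share of up to 84.2%.

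**Figure D1:**
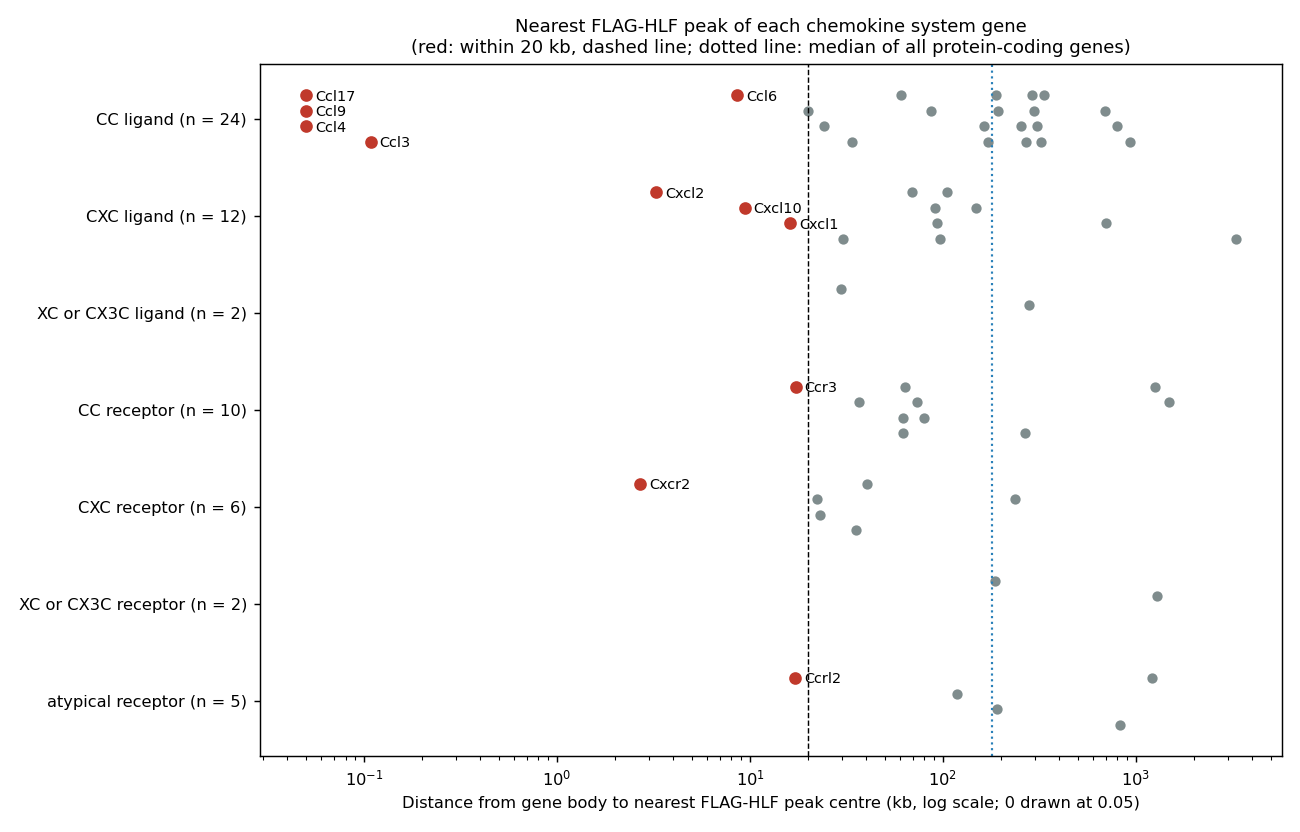
Distance from each of the 61 gene bodies to its nearest FLAG-HLF peak centre (kb, log axis, distances of 0 drawn at 0.05), by class of ligand or receptor. Each point is 1 gene. The 11 red points lie within 20 kb, and Ccl3, Ccl4, Ccl9 and Ccl17 stand farthest to the left.

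Of the CC ligand genes, 5 of 24 were near a peak, and 4 of these lie together. The chromosome 11 group from Ccl5 to Ccl4 (chr11:83525778-83664683) holds 5 genes and had 3 peaks. Ccl9 (chr11:83572917-83578636) had 2 of them, since a second peak, chr11:83579102-83579501, was centred 665 bp upstream of its 5′ end and 711 bp from the first. Ccl6 (chr11:83587886-83593087), a CCR1 ligand of mouse myeloid cells, was near a peak only through this pair, at 8.59 and 9.30 kb from its 3′ end. Ccl4 (chr11:83648624-83664683), which encodes MIP-1 beta, a chemoattractant of macrophages and other leukocytes, shares the peak of Ccl3. The table's Ccl4 body overlaps Ccl3, which places that peak 862 bp inside Ccl4, and no 5′ end of Ccl4 was in the promoter table. Ccl5 (chr11:83525778-83530518), which encodes RANTES, a T cell chemoattractant, lay just past the limit. Its nearest peak was 20.1 kb away, inside Taf15.

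The other CC ligand group of chromosome 11 had no near peak. Its 6 genes are Ccl2, Ccl7, Ccl11, Ccl12, Ccl8 and Ccl1 (chr11:82035577-82179812), among them the monocyte chemoattractant MCP-1 gene Ccl2 and the eotaxin gene Ccl11. Their nearest peak lay between 192 kb (Ccl1) and 334 kb (Ccl2) away. The fifth CC ligand near a peak was Ccl17 (chr8:94809380-94812038), whose product TARC attracts T cells through CCR4. Its single peak, chr8:94811702-94812101, lay inside the gene, 137 bp from the 3′ end and 1.45 kb from the annotated 5′ end. It was also 7.92 kb from the neighbouring Ciapin1. The genes beside Ccl17 were farther from that peak, with Cx3cl1 (fractalkine) at 29.5 kb and Ccl22, another CCR4 ligand gene, at 60.5 kb.

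Of the CXC ligand genes, 3 of 12 were near a peak. Cxcl1 (chr5:90891245-90893121) and Cxcl2 (chr5:90903899-90905938) encode neutrophil chemoattractants that act through CXCR2. They shared 1 peak, chr5:90908994-90909393, which lay 3.26 kb beyond the 3′ end of Cxcl2 and 16.1 kb beyond that of Cxcl1. It was near no other protein-coding gene. The other genes of the same group, Cxcl5, Cxcl3 and Cxcl15, had their nearest peak on the opposite side of the group, at 69.4, 96.2 and 104.6 kb. Cxcl10 (chr5:92346638-92348889) encodes IP-10, an interferon-induced ligand of CXCR3. It had 2 peaks upstream of its 5′ end, at 9.37 kb (chr5:92358057-92358456) and 19.7 kb (chr5:92368385-92368784). Both lay inside the body of Art3, an ADP-ribosyltransferase family gene, at 26.5 and 36.8 kb from its nearer end. Cxcl9, the neighbouring interferon-induced ligand gene, was 30.2 kb from the first of them.

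**Figure D2:**
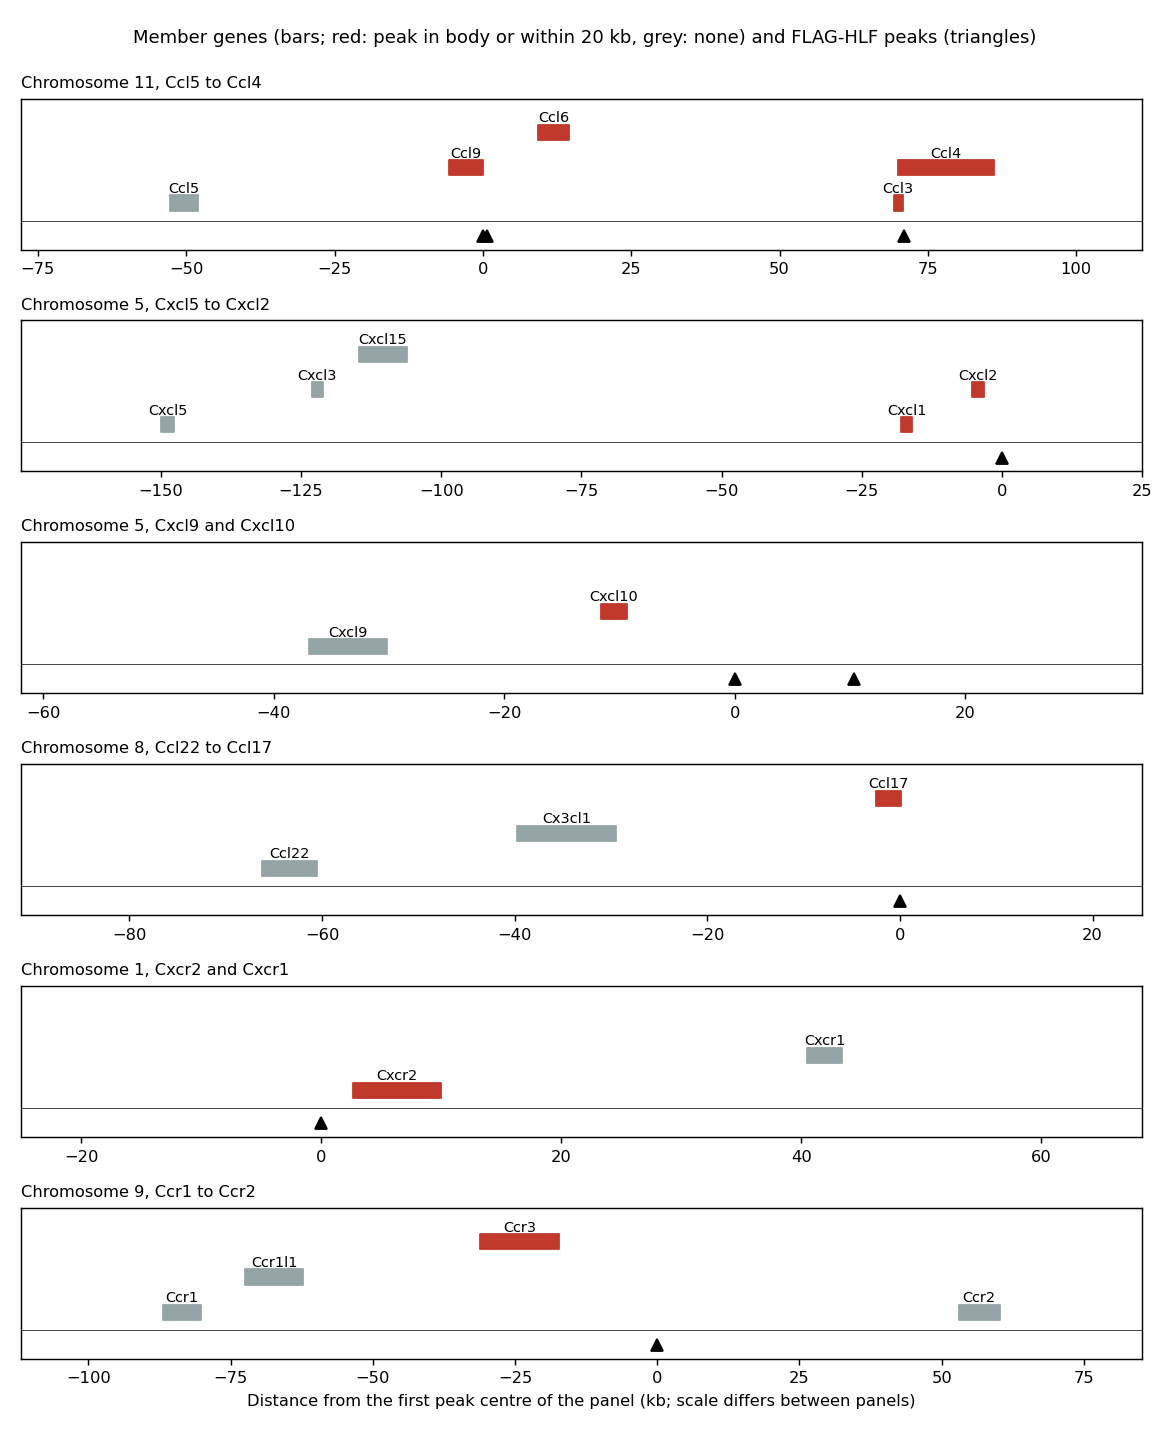
Maps of the 6 groups of neighbouring genes that had a peak, drawn to scale in kb from the first peak centre of each panel. Bars are gene bodies, red where a peak lay in the body or within 20 kb and grey where none did, and triangles are peaks. On chromosome 11 the paired peaks sit at the edge of Ccl9 and a single one at the edge of Ccl3, while on chromosome 9 the peak lies between Ccr3 and Ccr2.

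Among signalling receptors, the closest peak was at Cxcr2 (chr1:74153994-74161246), which encodes the receptor for CXCL1 and CXCL2 on neutrophils. Its peak, chr1:74151111-74151510, was centred 2.68 kb upstream of the 5′ end and 3.08 kb from the neighbouring Rufy4. Cxcr1, its paralogue and neighbour, was 40.5 kb from the same peak. Of the CXCR2 ligand genes, Cxcl1 and Cxcl2 were near a peak, whereas Cxcl5, Cxcl3 and Ppbp were not, at 69.4, 96.2 and 78.6 kb.

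In the CC receptor group on chromosome 9, the reported peak lay in the outer part of the 20 kb window. Ccr3 (chr9:124017825-124031692), the eotaxin receptor gene of eosinophils, had a peak 17.2 kb beyond its 3′ end (chr9:124048722-124049121). That peak was near no other protein-coding gene. Ccr2, the CCL2 receptor gene of monocytes, was 36.8 kb from its nearest peak. Ccr1 and Ccr1l1 were 80.2 and 62.2 kb from the Ccr3 peak. The next receptor genes along the chromosome, Xcr1, Cxcr6 and Ccr9, were 187, 237 and 265 kb from that peak. CCR9 directs thymocyte and gut lymphocyte migration.

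Of the atypical receptor genes, 1 of 5 was near a peak. Ccrl2 (chr9:111054834-111057518) encodes a receptor that presents chemerin, and its peak (chr9:111037544-111037943) was 17.1 kb beyond its 3′ end. That peak lay inside Ltf, the lactoferrin gene of neutrophil granules, 5.02 kb from the nearer end of Ltf. The atypical receptor genes Ackr1 (the Duffy antigen), Ackr2, Ackr3 and Ackr4 had their nearest peaks at 118, 192, 826 and 1218 kb.

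The best-known chemokine pair of the stem cell niche was not near a peak. Cxcr4 (chr1:128588199-128592299) was just past the limit, with its nearest peak 23.0 kb upstream of its 5′ end and in no protein-coding gene. Cxcl12 (chr6:117168535-117181368), which encodes its ligand SDF-1, was 700 kb from a peak. When a peak was instead credited to a single gene, the one with the closest end at up to 100 kb, Cxcr4 and Cxcr5, the B cell follicle receptor gene whose nearest peak was at 22.2 kb, gained a peak. Under that rule 9 members (14.8%) had one, against 10.99% of all protein-coding genes, and Ccl4, Ccl6, Cxcl1 and Ccrl2 no longer did. Ccr7, which guides cells to lymph nodes, was 62.4 kb from a peak, and Cx3cr1, the fractalkine receptor gene of monocytes, 1281 kb.

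Of the 38 ligand genes, 30 had no peak within 20 kb, and those not described with a group above follow here or among the genes just past the limit. Ccl19 and Ccl21a, which encode CCR7 ligands, lay 189 and 171 kb from a peak, and Cxcl13, which encodes the CXCR5 ligand, 3306 kb. Ccl25, Ccl28 and Cxcl14, which encode ligands of mucosa and skin, lay 86.4, 297 and 91.5 kb from one. Ccl20, Xcl1, Cxcl16 and Cxcl17 lay 163, 279, 148 and 93.5 kb away. The Ccl27 and Ccl21 copies on chromosome 4 (Ccl27a, Ccl27b, Ccl21b and Ccl21d) lay between 289 and 932 kb away. They and Ccl21a belong to a set of near-identical copies, where reads may not be placed uniquely, and how that bears on their peaks was not tested. Ccl19, in the same group as Ccl27b and Ccl21a, may share this limit. Of the receptor genes not named so far, Ccr4, Ccr8 and Ccr10 lay 73.4, 1254 and 63.5 kb from a peak, and Cxcr3, on X, 35.4 kb.

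Since neighbouring members share peaks, they were also counted as loci, by joining members whose bodies lie at most 100 kb apart. This gave 35 loci, of which 7 had a peak (95% interval of the share 8.44 to 36.9%). Of 11 loci with several members 6 had one, and of 24 loci with a single member 1 had one, that of Ccrl2. A locus of several members covers more sequence by construction. No share was computed for loci built in this way from other genes, so the locus counts have no background of their own. Of the 10 peaks, 4 were each near 2 members, and 5 were also near a gene outside the family. The merged 20 kb surroundings of the 61 members covered 2.55 Mb and held 3.92 peaks per Mb (1.88 to 7.21). Those of all protein-coding genes held 1.80 per Mb (1.73 to 1.87), and those of genes with a span between the quartiles of the members 2.59 per Mb (2.37 to 2.84).

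The share of members near a peak rose with the window, as did the background. In the gene body alone 3 of 61 members (4.92%) had a peak, namely Ccl4, Ccl9 and Ccl17, against 6.94% of all protein-coding genes. Members are short, and among genes with a span between the members' quartiles the share was 1.96% (106 of 5411). Within 1 kb there were 4 members (6.56%, background 7.8%), within 5 kb 6 (9.84%, background 9.58%) and within 10 kb 8 (13.1%, background 11.6%). Within 50 kb there were 21 (34.4%, 22.7 to 47.7%), against 24.6%. In each of these windows the background was inside the interval of the family. The median distance from a member to its nearest peak was 93.5 kb, against 178.8 kb over all protein-coding genes, and 29 members (47.5%) were over 100 kb from one, against 63.1%. These distances are not independent, since neighbouring members often have the same nearest peak. They carry no interval, and no such values were computed for genes of similar span.

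**Figure D3:**
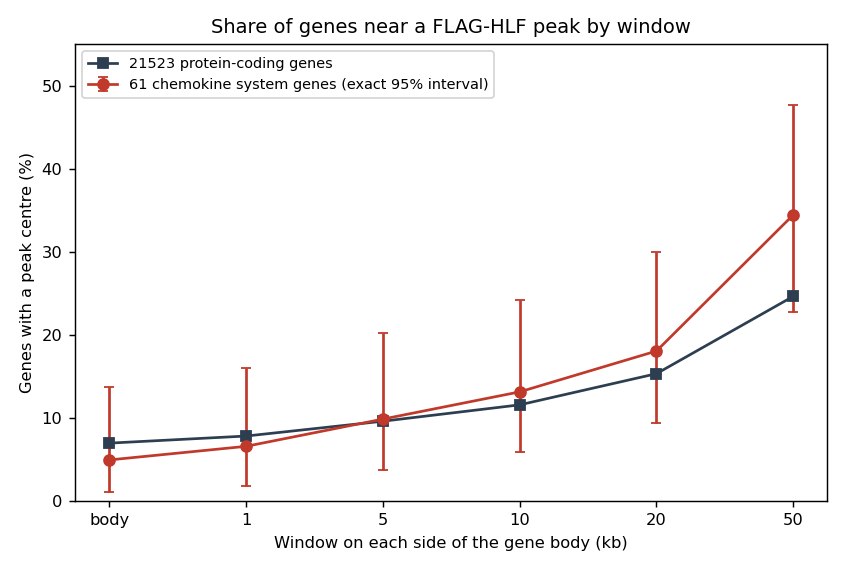
Share of genes (%) with a FLAG-HLF peak centre in the body or within the window on each side (kb). Circles are the 61 members with exact 95% intervals, and squares are all 21523 protein-coding genes, whose share lies inside the members' interval in every window shown.

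The members just inside and just outside the 20 kb limit show how far the count rests on it. Cxcl1, Ccrl2 and Ccr3 were inside at 16.1, 17.1 and 17.2 kb. Ccl5, Cxcr5, Cxcr4 and Ccl26 were outside at 20.1, 22.2, 23.0 and 24.3 kb. In all, 10 members had their nearest peak between 20 and 50 kb. The others among these were Cx3cl1, Cxcl9, Ccl24, Cxcr3, Ccr2 and Cxcr1, and the peaks nearest to Ccl26 and Ccl24 were inside Hip1.

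Chemokine receptors signal through Gi proteins to phosphoinositide 3-kinase gamma, phospholipase C and the Rac activators that drive cell movement. A list of 50 genes downstream of these receptors, wider than the steps just named, was written from textbook knowledge. Earlier results of these data were known then, so the list's share near peaks is not independent of them. Of the 50 genes, 26 (52.0%, 37.4 to 66.3%) were near 33 distinct peaks, beside the background of 15.3%. This share is that of the whole list. Among listed genes beyond the named steps, Jak2, Jak3, Stat3, Foxo3, Nfkb1, Nfkbia and Rela were near a peak. Fgr, Rap1a and Rasgrp2 were not. The listed genes are long, with a median span of 39.4 kb. It was 17.4 kb for all protein-coding genes and 5.20 kb for the chemokine and receptor genes. Among protein-coding genes with a span between the list's quartiles, 17.7% were near a peak. In 17 of the 50 a peak lay inside the gene (34.0%), against 6.94% of all protein-coding genes and 8.43% of those with a span between the list's quartiles. Those quartiles end at 95.2 kb, and many of the 17 genes are longer, such as Tiam1 (358 kb), Elmo1 (518 kb) and Dock2 (557 kb). Gene length is therefore not accounted for in this comparison. The 17 included the G-protein subunit gene Gnai3 and the Rac activator genes Vav1 (3 peaks, 1 of them inside), Dock2, Elmo1, Prex1 and Tiam1. Arrb1 and Grk5, which encode a beta-arrestin and a receptor kinase that switch receptors off, were among them as well. Nfkbia and Rela, which encode an NF-kB inhibitor and subunit, had peaks 516 and 713 bp outside a boundary. The other 24 genes of the list had none within 20 kb. They included every listed gene of phosphoinositide 3-kinase (Pik3cg, Pik3cd and Pik3r5) and of phospholipase C (Plcb2 and Plcb3). Gnai1, Gnai2, Gnb2, Grk2, Grk3, Grk6, Arrb2, Rac1 and Cdc42 were also among them. So were Rgs1, Rgs2, Rgs13, Rgs16, Rgs18 and Rgs19, whereas Rgs3 and Rgs14 were near a peak.

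Genes of receptors that steer leukocytes by other ligands also shared peaks with their neighbours. Of 16 such genes, also chosen with earlier results known, 7 (43.8%, 19.8 to 70.1%) were near a peak, through 4 distinct peaks. The background was 15.3%. The interval counts genes that share a peak as independent. The count was 3 of 16 within 10 kb, beside a background of 11.6%, and 0 of 16 in the gene body, beside 6.94%. C5ar2 and C5ar1, the complement C5a receptor genes, shared a peak at 122 bp and 2.47 kb. Fpr2 and Fpr1, the formyl peptide receptor genes, shared one at 7.02 and 17.0 kb. Ltb4r1 and Ltb4r2, the leukotriene B4 receptor genes, shared one at 13.0 and 17.4 kb. Gpr183, the oxysterol receptor gene EBI2, had one at 17.6 kb.

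**Figure D4:**
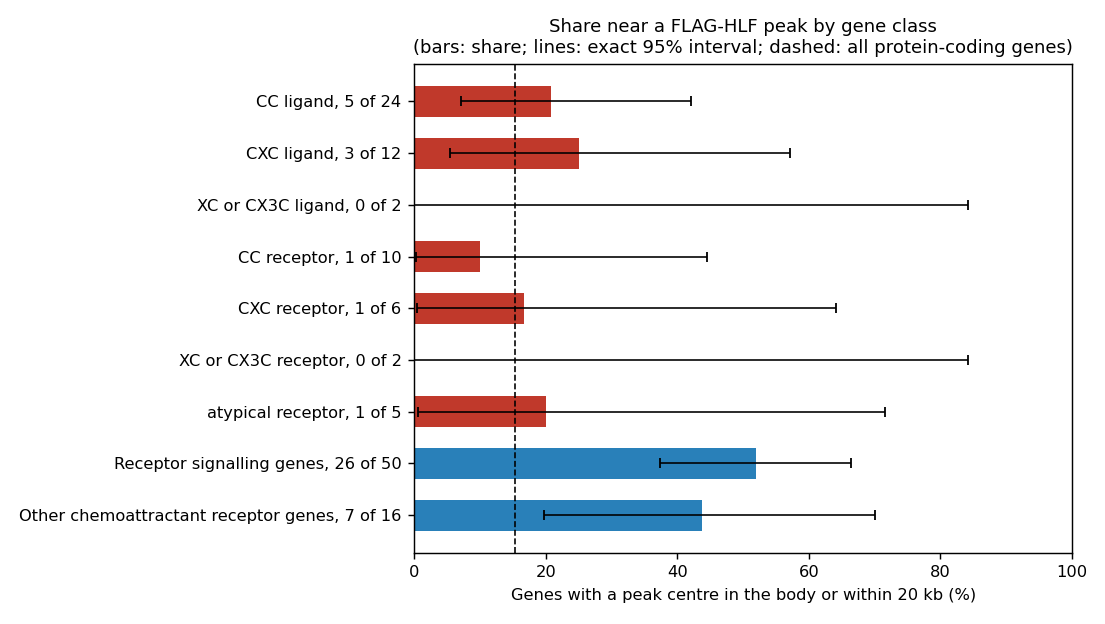
Share of genes (%) with a peak centre in the body or within 20 kb. Red marks the classes of ligands and receptors, and blue the signalling and other chemoattractant receptor lists. Both lists were chosen with earlier results of these data known. Bars are shares with exact 95% intervals, and the dashed line is the 15.3% of all protein-coding genes. The intervals of the red classes cover that line, and those of both blue lists lie to its right. All intervals count genes as independent. In the other chemoattractant receptor list, the 7 genes near a peak share 4 distinct peaks, so its interval is too narrow to set that list apart from the line.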

How the data were processed

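The authors deposited a peak list of the FLAG-HLF library (3 columns, no header, start and end positions on mm10). Bowtie2 2.0.6, MACS2 2.0.10 and mm10 are named, with no roles, per the submitters' processing notes. Peak thresholds, use of the control library and the step that gave each peak 1 width were steps not given in the sources used here. The fixed width hides how far enrichment reached, and the centre (start + 200 bp) was taken as the position. Gene positions came from a RefSeq table of GRCm38.p6, whose chromosome coordinates are those of mm10. Of 49997 rows 49214 were used, leaving out Y, mitochondrial and unplaced genes and starts below 3 Mb, which are scaffold coordinates. Gene starts and strand came from the RefSeq promoter table, which lacked 13 of the 61 members. One gene that the symbol rule selects is not reported here and is left out of the counts of members. Exons and introns could not be assigned.

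Counts were computed in Python 3.11.15 with pandas 2.3.3 and scipy 1.17.1, and the peak-to-gene step was tested on simulated data. Named genes are the members within 50 kb of a peak and 8 genes of cell traffic, with further members as comparisons. Members, lists and rules were chosen with earlier results of these data known.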

Additional observations from a re-analysis of the deposited data

How the results depend on the processing

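The counts depend mainly on the window. Members, distinct peaks and loci were 11, 10 and 7 at 20 kb. They were 3, 3 and 2 in the gene body, 4, 4 and 2 at 1 kb, 6, 6 and 4 at 5 kb, and 21, 19 and 11 at 50 kb. The background followed, at 6.94, 7.8, 9.58, 11.6 and 24.6% in the body and at 1, 5, 10 and 50 kb. It was 10.99% by the nearest boundary, 14.7% over the span range of the members, 14.6% on their chromosomes, and 12.1 and 17.7% between the span quartiles of the members and of the signalling genes. Ligand counts were 3, 4, 5 and 13 in the body and at 1, 5 and 50 kb, and receptor counts 0, 0, 1, 1 and 8 in the body and at 1, 5, 10 and 50 kb. Signalling genes fell to 17 in the body, and the other chemoattractant receptors to 0, 1, 2 and 3 in the body and at 1, 5 and 10 kb. Promoter words went from 0 exact to 6 with 1 mismatch. Narrower windows and looser matching are the causes by construction. Counting any overlap of the interval gave 12 members, by adding Ccl5, and merging peaks within 1 kb gave 11 members and 9 peaks. The ligand, receptor and list windows, both quartile backgrounds and the mismatch search were chosen after the data were seen. A stricter peak threshold could not be run without scores. The depth is unknown, so a gene without a listed peak may have binding below the authors' threshold. No paired analysis was possible because the data are from 1 library. Leaving out replicates was likewise not possible.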
